A study of Mus musculus with 12 samples.

Results

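The genes described here make, sense and move cholesterol in the liver. They comprise 31 genes chosen by name for these roles and matched to the count table by mouse symbol: 19 enzymes that carry acetyl-CoA units to cholesterol, 6 genes of the SREBP2 control system and 6 genes of sterol uptake, transport and esterification. All 31 were found among the 24983 genes of the count table, and all 31 passed the filter on low counts that 14469 genes passed. Liver RNA was sequenced from 12 C57BL/6 mice, named as C57BL/6J in the treatment protocol, with 3 mice in each of 4 groups. The chow group ate a standard diet. The other 3 groups ate a NASH diet for 24 weeks, a diet with 40% of its calories from fat that is high in saturated and trans fat, fructose and cholesterol and is used to produce fatty, inflamed liver. They carried osmotic minipumps under the skin. The vehicle group received polyethylene glycol (PEG), the OA group oleic acid in PEG, and the OA-NO2 group nitro-oleic acid in PEG, both fatty acids at 5 mg/kg/day. Nitro-oleic acid is oleic acid bearing a nitro group. The labels name no pump for the chow mice, so that diet and pump cannot be told apart in any comparison with chow. The sources used here do not give age, sex or the hour of tissue collection.

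Cholesterol is built from acetyl-CoA through mevalonate, the isoprenoid units, squalene and lanosterol, and a late set of reactions then trims lanosterol to cholesterol. The transcription factor SREBP2, encoded by Srebf2, drives most of these genes. When sterols are scarce, SCAP escorts SREBP2 from the endoplasmic reticulum to the Golgi, where the proteases S1P and S2P (Mbtps1 and Mbtps2) release its active part. When cholesterol is plentiful, INSIG proteins hold SCAP in place and the target genes are transcribed less. The liver receives dietary cholesterol and is a main site of this control.

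SREBP2 commonly acts at short sterol regulatory elements near the start of its targets, beside the factor NF-Y, which binds CCAAT boxes. The stretches just before the start of 6 synthesis genes, picked by hand, are shown as examples of the promoter letters described next. CCAAT letters do not set the 6 apart, since 21 of the 25 members searched hold them. Of the 6, 5 (all but Hmgcs1) carry the diet differences given further on. The stretches come from RefSeq on GRCm38.p6 and are written on the gene's strand, with capitals on the matched letters.
Hmgcs1, chr13:119690201-119690350, + strand: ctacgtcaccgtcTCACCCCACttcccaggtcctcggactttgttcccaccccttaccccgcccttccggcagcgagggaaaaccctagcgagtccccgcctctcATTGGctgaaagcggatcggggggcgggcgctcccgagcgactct
Idi1, chr13:8885506-8885605, + strand: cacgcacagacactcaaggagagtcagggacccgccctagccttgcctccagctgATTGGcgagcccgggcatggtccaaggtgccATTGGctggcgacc
Cyp51, chr5:4104698-4104797, - strand: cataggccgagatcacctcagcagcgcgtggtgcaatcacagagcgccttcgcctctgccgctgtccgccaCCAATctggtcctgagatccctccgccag
Msmo1, chr8:64733579-64733758, - strand: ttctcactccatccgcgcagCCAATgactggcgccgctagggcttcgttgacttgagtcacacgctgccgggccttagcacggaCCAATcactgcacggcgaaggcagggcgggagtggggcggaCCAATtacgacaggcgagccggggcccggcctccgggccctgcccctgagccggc
Tm7sf2, chr19:6067851-6067950, - strand: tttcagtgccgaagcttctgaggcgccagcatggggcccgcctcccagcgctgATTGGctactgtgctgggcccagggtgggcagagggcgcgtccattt
Hsd17b7, chr1:169969206-169969305, - strand: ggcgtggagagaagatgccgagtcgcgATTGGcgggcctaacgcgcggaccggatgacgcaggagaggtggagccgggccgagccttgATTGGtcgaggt

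The letters of the sterol regulatory element were searched as TCACNCCAC on both strands, GTGGNGTGA being the same letters read on the other strand, in windows of 300 bases that ran from 250 before to 50 after each RefSeq start. Of the 25 members with such a window, 1 held a match, Hmgcs1, in which it began 137 bases before the start. The same letters occurred in 1.24% of all 32851 windows. The CCAAT letters, CCAAT or ATTGG, occurred in 37.4% of all windows and in 21 of the 25 members, some of which had up to 3 windows. For both motifs a member was counted if any of its windows matched. The counts of members and the shares of windows are therefore not in like units. The 2 motifs do not share letters in any stretch shown. A match describes the letters of a window and is not a measured binding site, and these are letters of RefSeq, not of the mice sequenced. Only the exact letters TCACNCCAC were searched for the sterol regulatory element. A window without a match was therefore not shown to lack such an element. Fdps, Fdft1, Sqle, Stard4, Npc1 and Soat2 had no window.

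Library totals lay between 15972613 and 20613777 counts in 11 libraries, and chow replicate 1 was the shallowest with 8462590. Levels are given in CPM, a gene's count scaled to a library total of 1000000 after TMM, a scaling by which edgeR aligns the bulk of the genes between libraries. Differences are log2 fold changes with their standard error from edgeR's quasi-likelihood test over all 12 libraries, and a gene is said to rise or fall where its Benjamini-Hochberg adjusted p over the 14469 genes was under 0.05. The liver label was met: the 10 hepatocyte markers summed to between 52726 and 169050 CPM in each library. Pancreas markers summed to at most 17.2 CPM and adrenal markers to at most 2.83 CPM. The adipose list summed to between 893 and 2884 CPM and the intestine list to between 542 and 1250 CPM. Car3 held 356287 counts of the adipose list over the 12 libraries, and each other gene at most 51. Apoa4 held 129304 and Fabp2 56353 counts of the intestine list, beside 54 for Vil1 and 3 for Alpi. Because liver was sequenced whole, fewer cells of a type and less RNA per cell cannot be told apart.

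Chow replicate 1 stood apart in the sterol synthesis genes. The 19 synthesis enzymes summed to 1622 CPM in it, against 962 and 953 CPM in chow replicates 2 and 3. It held the highest of the 3 chow values in 17 of the 19 enzymes, and its ratio to the mean of the other two ran from 1.08 to 4.81 with a median of 1.81. The 12 control and transport genes had a median ratio of 0.981, with 6 of 12 above 1. Of the control genes, Insig1, Srebf2 and Insig2 had ratios of 1.71, 1.67 and 1.63, near the enzyme median. Scap, Mbtps1 and Mbtps2 lay below 1. The same library also stood apart in some clock genes, whose transcripts follow the time of day. Arntl stood at 8.73 CPM in it against 1.58 and 1.28, and Dbp at 16.8 CPM against 44.5 and 73.2, while Per2, at 20.3 CPM against 33.0 and 20.8, lay close to chow replicate 3. The part of depth or of the hour of collection in these values was not tested. Each comparison with chow is therefore also given without this library, a choice listed among the alternatives to be run.

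**Figure D1:**
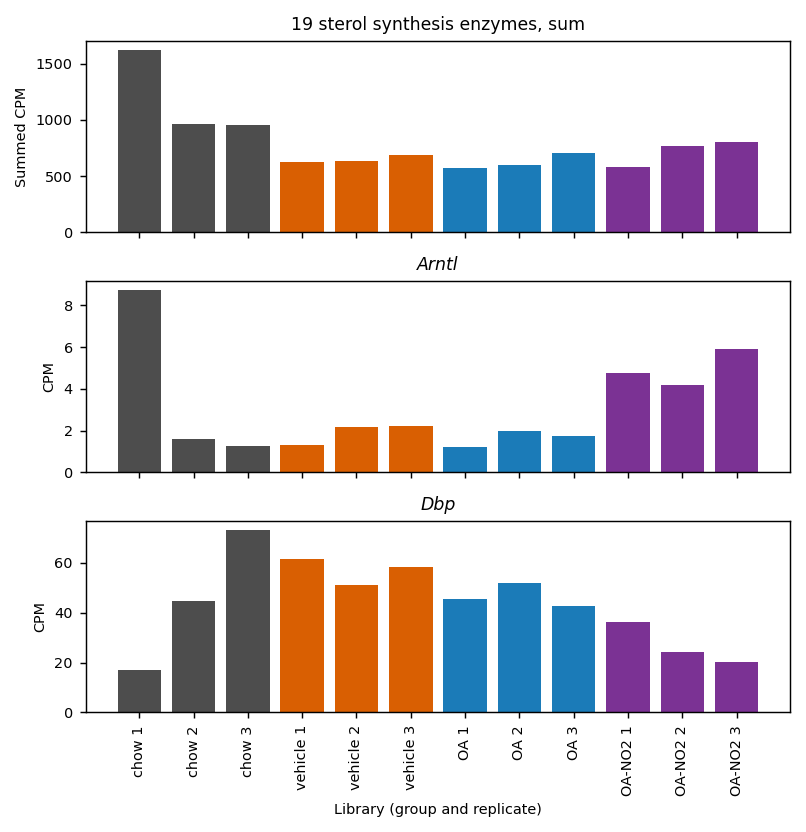
Summed level of the 19 sterol synthesis enzymes (top, summed CPM) and level of the clock genes Arntl and Dbp (middle and bottom, CPM) in each of the 12 libraries, 1 bar a library, coloured by group. Chow replicate 1 holds the highest enzyme sum, 1622 CPM, the highest Arntl, 8.73 CPM, and the lowest Dbp, 16.8 CPM.

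The NASH diet with vehicle went with lower sterol synthesis transcripts. Of the 31 genes, 12 fell and 2 rose against chow, while over all genes tested 8.16% were called lower and 11.1% higher. Those that fell were Idi1, Fdft1, Sqle, Lss, Cyp51, Tm7sf2, Msmo1, Nsdhl, Hsd17b7, Ebp, Insig1 and Stard4. Npc2 and Soat1 rose. In 13 of the 31, every vehicle library lay below every chow library, which was so for 19% of all genes. All 19 enzymes had a negative log2 fold change and their median was -0.86, beside -0.01 over all genes. When TMM was replaced by library size alone, 6 members fell and 5 rose. That scaling moved the median of all genes from -0.01 to 0.51 and the median of the 31 members from -0.36 to 0.15. Of the 19 enzymes, Acat2, Dhcr7, Fdps, Hmgcs1, Lbr, Mvd, Mvk and Sc5d turned positive with it. Without chow replicate 1, 6 genes still fell (Lss, Cyp51, Tm7sf2, Msmo1, Hsd17b7 and Stard4) and Npc2 and Soat1 still rose. Dhcr7, Fdps, Hmgcs1 and Mvd then turned positive. The shares of all genes above belong to the fit as reported, and none is given here for these refits.

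**Figure D2:**
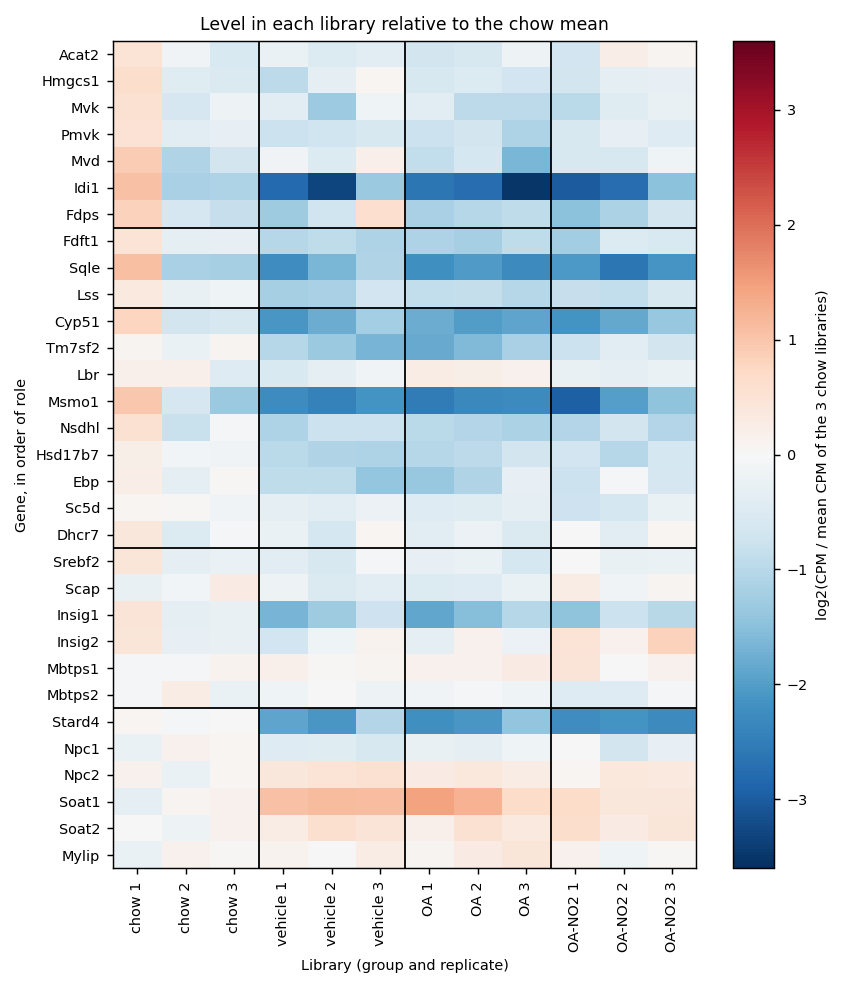
Level of each of the 31 genes (rows, grouped by role) in each of the 12 libraries (columns), coloured by log2 of its CPM over the mean CPM of the 3 chow libraries. Idi1, Sqle, Cyp51, Msmo1, Insig1 and Stard4 are blue in all 9 NASH-diet libraries, Soat1 is red there, and chow replicate 1 is redder than the other chow libraries in most synthesis enzymes.

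Of the 7 genes of the early steps, from acetyl-CoA to the isoprenoid units, 1 fell with vehicle, Idi1, which converts isopentenyl diphosphate to its isomer. Idi1 stood at 86.7, 18.3 and 19.3 CPM in the chow libraries, 5.96, 4.16 and 16.3 CPM with vehicle, 6.88, 6.15 and 3.67 CPM with OA, and 5.20, 6.16 and 14.9 CPM with OA-NO2. All 9 NASH-diet libraries lay below all 3 chow libraries, yet vehicle replicate 3 came close to the lower chow values. With vehicle its log2 fold change was -2.20 ± 0.64 (SE, n = 3 a group, edgeR adjusted p = 0.0302). It was -1.09 without chow replicate 1 (edgeR adjusted p = 0.194) and -3.00 without vehicle replicate 3, and the call was also lost without vehicle replicate 1 or 2.

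The other early enzymes showed smaller differences with vehicle that did not pass the test. Hmgcs1, the synthase that makes HMG-CoA, stood at 142, 66.6 and 63.5 CPM with chow and 47.3, 72.4 and 95.9 CPM with vehicle, so that the groups overlapped. The same gene had 60.6, 64.8 and 55.9 CPM with OA and 57.8, 72.3 and 74.5 CPM with OA-NO2. Its log2 fold change with vehicle was -0.33 ± 0.29, and without chow replicate 1 it was 0.14. Hmgcs1, which holds the exact letters searched for in its window, was not among those that fell. Acat2 (acetoacetyl-CoA thiolase), Mvk and Pmvk (the mevalonate kinases), Mvd (the decarboxylase) and Fdps (farnesyl diphosphate synthase) had log2 fold changes between -0.66 and -0.01 with vehicle.

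Pmvk, which adds the second phosphate to mevalonate, fell in the OA group only by its own test. It stood at 21.5, 11.5 and 12.2 CPM with chow, 8.90, 9.22 and 10.1 CPM with vehicle, 8.87, 9.59 and 6.98 CPM with OA, and 10.2, 12.2 and 10.9 CPM with OA-NO2. Vehicle and OA libraries lay below all chow libraries, and the OA-NO2 libraries overlapped them. The log2 fold change was -0.80 ± 0.22 with OA (edgeR adjusted p = 0.0423) and -0.66 ± 0.22 with vehicle (edgeR adjusted p = 0.0538). The OA call was lost without chow replicate 1, at -0.48, and without any 1 of the 3 OA libraries. Library size alone and a fit of only the 6 libraries of the 2 groups lost it too.

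Fdps needs care in these counts. Its level was between 0.412 and 2.03 CPM in every library, the lowest per kilobase of exon of the 31 genes, 0.271 CPM per kilobase with chow. Of its distinct stretches of 76 bases, the read length, 58.3% also occur in transcripts of 5 other annotated genes, so that reads could be split or discarded. Acat2 shared 35.4% of its stretches, Mbtps2 35.1%, Idi1 26.5% and Fdft1 25.2%, the last with Ctsb and a gene model. Tm7sf2 shared 17.3% with Vps51, Hmgcs1 11.2%, and each of the others at most 8.94%.

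All 3 genes of the squalene steps, from farnesyl diphosphate to lanosterol, fell with vehicle and with OA. The OA calls of all 3 were lost without chow replicate 1 and without OA replicate 1 or 2. Library size alone also lost the OA call of Lss, and a fit of only the 6 libraries of the 2 groups lost that of Sqle. None of the 3 passed the test with OA-NO2, where the edgeR adjusted p was 0.141 for Fdft1, 0.0658 for Sqle and 0.0906 for Lss. Squalene synthase, Fdft1, stood at 172, 95.1 and 98.7 CPM with chow, 60.2, 65.1 and 56.7 CPM with vehicle, 56.6, 53.4 and 64.4 CPM with OA, and 51.2, 86.5 and 83.4 CPM with OA-NO2. No NASH-diet library reached the lowest chow library. Fdft1 fell with vehicle with a log2 fold change of -1.002 ± 0.24 (edgeR adjusted p = 0.0126), which was -0.68 without chow replicate 1 (edgeR adjusted p = 0.0545). It also lost its call without vehicle replicate 3 and with library size alone.

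Squalene epoxidase, Sqle, catalyses a rate-limiting step of the pathway. Its levels were 35.4, 7.43 and 7.30 CPM with chow, 3.54, 5.33 and 7.86 CPM with vehicle, 3.62, 4.05 and 3.43 CPM with OA, and 3.96, 2.75 and 3.81 CPM with OA-NO2. Vehicle replicate 3 lay above both of the lower chow libraries, while all 6 libraries with a fatty acid lay below every chow library. With vehicle the log2 fold change was -1.53 ± 0.51 (edgeR adjusted p = 0.0495). Without chow replicate 1 it was -0.40 (edgeR adjusted p = 0.398), and the call was lost without any 1 of the vehicle libraries. Library size alone and a fit of only the 6 libraries of the 2 groups lost it too.

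Lanosterol synthase, Lss, closes squalene epoxide into the first sterol. Its libraries held 18.7, 12.2 and 13.4 CPM with chow, 6.48, 6.55 and 9.13 CPM with vehicle, 8.001, 8.10 and 7.22 CPM with OA, and 8.34, 7.98 and 9.85 CPM with OA-NO2. All 9 NASH-diet libraries lay below all chow libraries. The fall of -0.98 ± 0.20 with vehicle (edgeR adjusted p = 0.00678) was kept at -0.79 without chow replicate 1 (edgeR adjusted p = 0.0285) and lost its call with library size alone.

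The late steps, from lanosterol to cholesterol, held 6 of 9 genes that fell with vehicle, and 4 of them kept the call under every alternative run: Cyp51, Tm7sf2, Msmo1 and Hsd17b7. Cyp51 encodes the lanosterol demethylase. It stood at 86.6, 32.4 and 34.1 CPM with chow, 11.9, 14.9 and 21.9 CPM with vehicle, 14.9, 12.8 and 13.6 CPM with OA, and 11.4, 14.2 and 20.0 CPM with OA-NO2. The highest NASH-diet library lay below the lowest chow library. Against chow, vehicle gave a log2 fold change of -1.63 ± 0.35 (edgeR adjusted p = 0.00853) and -1.03 without chow replicate 1 (edgeR adjusted p = 0.0286).

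Msmo1, the methylsterol oxidase that acts on the methyl groups at carbon 4, had the lowest log2 fold change of the 31 genes with vehicle. It stood at 279, 94.8 and 56.4 CPM with chow, 29.7, 26.7 and 32.0 CPM with vehicle, 25.1, 28.8 and 29.2 CPM with OA, and 18.8, 36.5 and 52.9 CPM with OA-NO2. The vehicle and OA libraries lay close together, whereas the OA-NO2 libraries spread up to the lowest chow value without reaching it. Msmo1 had a log2 fold change with vehicle of -2.27 ± 0.48 (edgeR adjusted p = 0.0077), and -1.36 without chow replicate 1 (edgeR adjusted p = 0.0264).

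Hsd17b7, the 3-ketosteroid reductase of the same demethylation, stood at near-equal levels in the 3 vehicle libraries. Its libraries held 51.3, 41.7 and 40.6 CPM with chow, 22.9, 20.9 and 20.8 CPM with vehicle, 21.8, 23.2 and 28.2 CPM with OA, and 27.7, 22.0 and 28.7 CPM with OA-NO2. The groups did not overlap chow. Its log2 fold change with vehicle was -1.04 ± 0.15 (edgeR adjusted p = 0.00252) and -0.94 without chow replicate 1 (edgeR adjusted p = 0.0121). Nsdhl, the decarboxylating dehydrogenase between these enzymes, stood at 21.4, 8.40 and 13.8 CPM with chow and 6.76, 8.42 and 8.41 CPM with vehicle. Its groups touched: chow replicate 2 lay level with 2 vehicle libraries. The log2 fold change of Nsdhl was -0.86 ± 0.27 (edgeR adjusted p = 0.039), and without chow replicate 1 it was -0.50 (edgeR adjusted p = 0.175). Its call was also lost without chow replicate 3 or any 1 of the vehicle libraries. Library size alone and a fit of only the 6 libraries of the 2 groups lost it too.

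Tm7sf2 and Lbr encode sterol reductases that catalyse the same step, and Lbr also anchors chromatin at the nuclear envelope. Tm7sf2 stood at 64.7, 51.7 and 65.2 CPM with chow, 29.9, 24.0 and 18.9 CPM with vehicle, 17.1, 20.2 and 26.9 CPM with OA, and 35.2, 46.7 and 38.6 CPM with OA-NO2. Vehicle and OA libraries overlapped each other, and all OA-NO2 libraries lay between them and chow. The log2 fold change with vehicle was -1.32 ± 0.20 (edgeR adjusted p = 0.00254), and without chow replicate 1 it was -1.27. Per kilobase of exon, Tm7sf2 had a level of 13.8 CPM per kilobase with chow and Lbr 0.950. Lbr stood at 5.15, 5.16 and 3.27 CPM with chow and 3.12, 3.62 and 4.14 CPM with vehicle, and these groups overlapped (log2 fold change -0.30 ± 0.22, edgeR adjusted p = 0.354).

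Ebp, the isomerase that moves the ring double bond, was the highest of the 31 genes per kilobase of exon with chow, at 89.9 CPM per kilobase. Its libraries held 245, 166 and 212 CPM with chow, 109.9, 110.4 and 78.7 CPM with vehicle, 80.8, 98.7 and 169 CPM with OA, and 122, 199 and 138 CPM with OA-NO2. Vehicle lay below chow, and 1 library of each fatty acid group lay within the chow range. The fall of -1.06 ± 0.27 with vehicle (edgeR adjusted p = 0.0193) was -0.93 without chow replicate 1 (edgeR adjusted p = 0.0715). The call was also lost without vehicle replicate 3 and with library size alone. The last enzymes did not pass the test: Sc5d, the lathosterol oxidase, had a log2 fold change of -0.31 ± 0.16 and Dhcr7, the terminal reductase, one of -0.23 ± 0.23. Dhcr7 was at 0.02 without chow replicate 1.

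**Figure D3:**
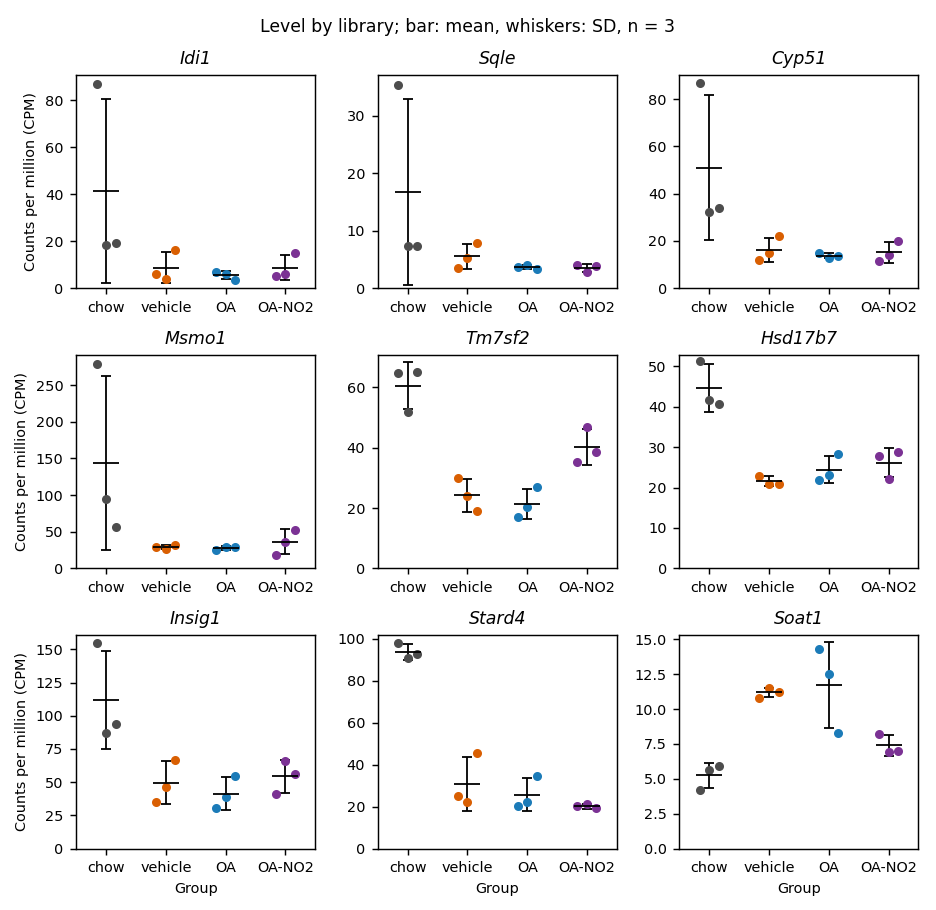
Level in CPM (vertical axis, from 0, its own scale in each panel) of 9 genes in the 4 groups, each point 1 library, with the group mean as a bar and whiskers of 1 SD (n = 3). In Idi1, Sqle, Cyp51 and Msmo1 chow replicate 1, the leftmost chow point, lies far above the other chow points, while the 3 chow points of Stard4 lie between 90.7 and 97.8 CPM, above every other library.

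Of the SREBP2 control genes 1 of 6 fell with vehicle, Insig1. It encodes the retention protein that is itself a target of SREBP2. Its libraries held 155, 87.4 and 93.9 CPM with chow, 35.3, 46.6 and 66.9 CPM with vehicle, 30.7, 38.5 and 54.9 CPM with OA, and 41.3, 65.99 and 55.9 CPM with OA-NO2. All 9 NASH-diet libraries lay below chow. For vehicle over chow the log2 fold change was -1.17 ± 0.29 (edgeR adjusted p = 0.0159), and -0.87 without chow replicate 1 (edgeR adjusted p = 0.0719). The call was also lost without vehicle replicate 1 or 2 and with library size alone.

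Srebf2 itself overlapped between the groups, at 35.9, 20.8 and 22.2 CPM with chow and 20.3, 17.6 and 25.6 CPM with vehicle. Its log2 fold change was -0.30 ± 0.21 (edgeR adjusted p = 0.338). Transcript level says nothing of how much SREBP2 is cleaved, which was not measured. Scap (-0.36), Insig2 (-0.20), Mbtps1 (0.11) and Mbtps2 (-0.11) also had log2 fold changes with vehicle that did not pass the test. Insig2, whose liver transcript is the more abundant of the pair here at 83.1 against 36.2 CPM per kilobase with chow, stood at 388, 236 and 240.5 CPM with chow, 179.995, 259 and 314 CPM with vehicle, 232, 319.7 and 249 CPM with OA, and 407, 322 and 513 CPM with OA-NO2. Its chow, vehicle and OA libraries overlapped, and all OA-NO2 libraries lay above all vehicle and OA libraries.

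Among the transport genes, Stard4 differed from chow in every NASH-diet library. It encodes a soluble protein that ferries cholesterol between membranes and is a target of SREBP2. Its libraries held 97.8, 90.7 and 92.5 CPM with chow, 25.1, 22.0 and 45.4 CPM with vehicle, 20.3, 22.0 and 34.7 CPM with OA, and 20.1, 21.2 and 19.1 CPM with OA-NO2. Every NASH-diet library lay far below every chow library, and chow replicate 1 was close to the other chow libraries. The log2 fold change with vehicle was -1.60 ± 0.25 (edgeR adjusted p = 0.00254), and -1.57 without chow replicate 1 (edgeR adjusted p = 0.0128). Its call was kept under every alternative run in all 3 comparisons with chow.

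Soat1 and Soat2 esterify cholesterol for storage. Soat2 is the form of hepatocytes and intestine, and Soat1 is typical of macrophages. Soat1 stood at 4.21, 5.64 and 5.89 CPM with chow, 10.8, 11.5 and 11.2 CPM with vehicle, 14.3, 12.5 and 8.31 CPM with OA, and 8.24, 6.94 and 7.01 CPM with OA-NO2. All NASH-diet libraries lay above chow, and the OA-NO2 libraries lay below the vehicle libraries. It rose with vehicle by 1.07 ± 0.21 on the log2 scale (edgeR adjusted p = 0.00586), a call kept under every alternative run. Soat2 stood at 18.1, 15.6 and 19.8 CPM with chow and 21.3, 26.4 and 24.4 CPM with vehicle, without overlap, with a log2 fold change of 0.43 ± 0.16 (edgeR adjusted p = 0.0732).

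Markers of several cell types moved with the diet, macrophage markers among them. The 10 macrophage markers summed to between 164 and 344 CPM in the chow libraries, 498 and 745 CPM with vehicle, 402 and 898 CPM with OA, and 377 and 402 CPM with OA-NO2, and none of them was at 0 counts throughout a group. With vehicle 7 of the 10 rose and none fell, with a median log2 fold change of 1.80. The resident macrophage markers Clec4f and Vsig4 were not among them, at -0.02 and 0.22. The lowest Soat1 library among vehicle and OA, OA replicate 3 at 8.31 CPM, also held the lowest macrophage sum of those groups, 402 CPM. The part of macrophage number in Soat1 was not tested. Of 8 stellate and myofibroblast markers 6 rose with vehicle, with a median log2 fold change of 2.61, and their sum lay between 97.3 and 121 CPM with chow and between 242 and 537 CPM with vehicle. Of 6 cholangiocyte markers 5 rose, with a median of 2.82, and their sum lay between 26.7 and 43.4 CPM with chow and between 72.3 and 490 CPM with vehicle. That sum mostly follows 1 gene: Spp1 held 36252 counts over the 12 libraries and each other gene of the list at most 1219. Hepatocyte markers summed to between 132480 and 169050 CPM with chow, 52726 and 71720 CPM with vehicle, 62214 and 109500 CPM with OA, and 78203 and 119240 CPM with OA-NO2. The hepatocyte sum mostly follows Alb, which held 13336540 counts over the 12 libraries, beside at most 2317051 for each other gene of the list. With vehicle 6 of 10 fell, with a median of -0.85 on the log2 scale, close to the median of the synthesis enzymes. The part of the other cell types or of hepatocyte content in the lower synthesis transcripts was not tested.

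Npc2 and Npc1 pass cholesterol out of lysosomes. Npc2, the soluble carrier, stood at 86.6, 65.4 and 81.6 CPM with chow, 103, 109 and 115 CPM with vehicle, 96.2, 101 and 93.7 CPM with OA, and 81.6, 102 and 100.3 CPM with OA-NO2. The vehicle and OA libraries lay above chow, and OA-NO2 replicate 1 lay within it. Npc2 rose with vehicle by 0.49 ± 0.14 on the log2 scale (edgeR adjusted p = 0.0319), and the call was lost without chow replicate 2 or 3, without vehicle replicate 2 or 3, and with no filter on low counts. Npc1, the membrane partner, lay lower in all vehicle libraries than in all chow libraries, at 90.8, 93.2 and 85.3 against 107, 139.9 and 131 CPM. Its log2 fold change was -0.49 ± 0.17 (edgeR adjusted p = 0.0537). Mylip, the ubiquitin ligase that removes lipoprotein receptors and is a target of LXR, had a log2 fold change of 0.13 ± 0.16.

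The OA and OA-NO2 groups also ate the NASH diet, and their comparisons with chow use the same 3 chow libraries as the vehicle comparison. With OA, 12 of the 31 fell, beside 2.23% of all genes, and 1 rose, Soat1, beside 6.33% of all genes. With OA-NO2, 3 fell, beside 0.249% of all genes, and none rose, beside 0.435% of all genes. Those 3 were Cyp51, Hsd17b7 and Stard4. At an unadjusted p under 0.05 in the same edgeR fit, 12 members were lower with OA-NO2 than with chow, beside 8.11% of all genes, and 2 were higher, Soat1 and Soat2, beside 10.7% of all genes. DESeq2 called none higher. It called Insig1, Lss, Msmo1, Nsdhl, Sc5d and Sqle lower, beside Cyp51, Hsd17b7 and Stard4. Without chow replicate 1, 6 members were called with OA (Cyp51, Tm7sf2, Msmo1, Hsd17b7, Stard4 and Soat1) and 1 with OA-NO2, Stard4. Without OA replicate 1, 5 were called with OA, and without OA replicate 2, 6. Each library left out of the OA-NO2 comparison gave 1, Stard4. The shares of all genes above belong to the edgeR fit as reported, and none is given here for DESeq2 or the fits with a library left out.

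The sizes beside each other were close for some genes and further apart for others. Stard4 had log2 fold changes against chow of -1.60 (vehicle), -1.87 (OA) and -2.22 ± 0.26 (OA-NO2) (edgeR adjusted p = 0.00198 for the last). Sqle had -1.53, -2.12 and -2.20, and Msmo1 had -2.27, -2.36 and -1.98. The OA-NO2 values of these 2 genes missed the threshold (edgeR adjusted p = 0.0658 for each). Cyp51 had -1.73 ± 0.35 with OA-NO2 (edgeR adjusted p = 0.0469) and Hsd17b7 had -0.76 ± 0.15 (edgeR adjusted p = 0.0457). Both calls were lost without any 1 of the 6 libraries compared and in a fit of only those 6. Hsd17b7 also lost its OA-NO2 call with library size alone. Tm7sf2 had -1.32 (vehicle), -1.50 (OA) and -0.59 (OA-NO2). With OA, Sqle was -0.99, Idi1 -1.75 and Insig1 -1.13 without chow replicate 1, and none of them then passed the test.

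**Figure D4:**
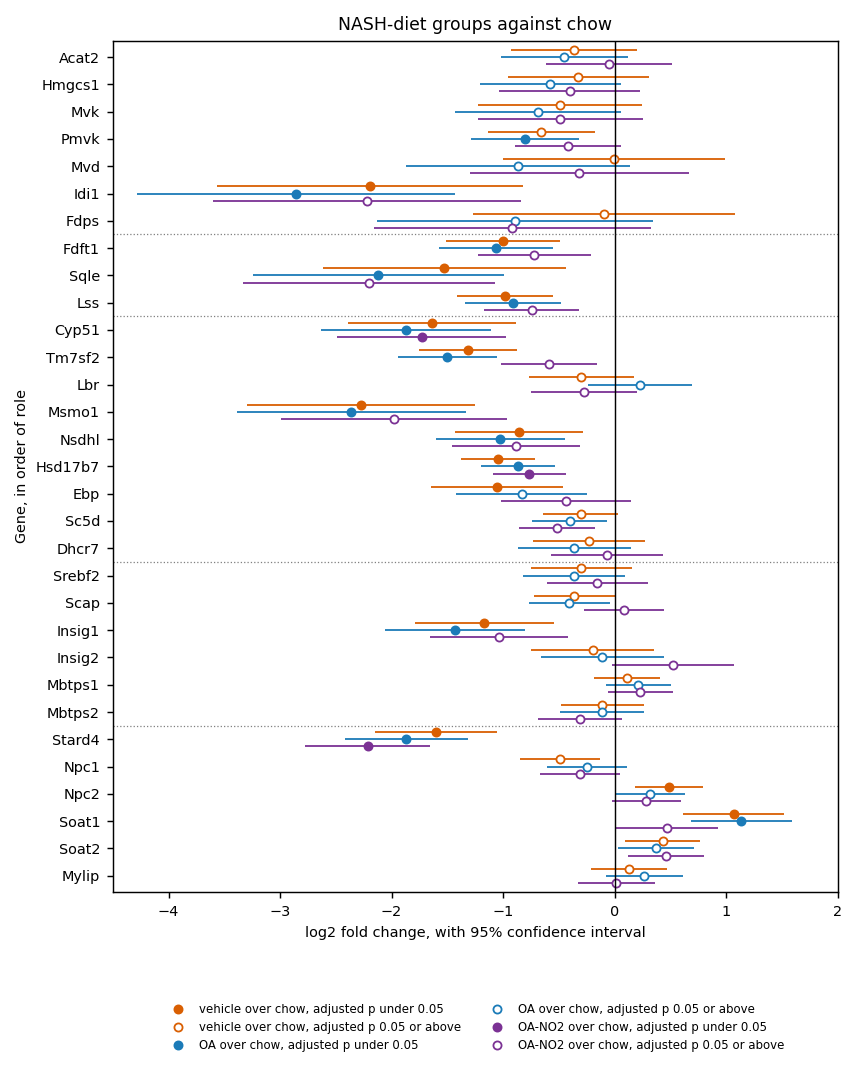
log2 fold change of each of the 31 genes (rows, grouped by role) in the vehicle, OA and OA-NO2 groups over chow, with 95% confidence intervals from edgeR, filled where the adjusted p was under 0.05. Filled points lie left of 0 for 12 genes in each of the vehicle and OA comparisons and for 3 genes in the OA-NO2 comparison, and right of 0 for Soat1 with vehicle and OA and for Npc2 with vehicle.

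Oleic acid and nitro-oleic acid were compared at the same dose, each against vehicle and against each other, with adjusted p over all 14469 genes in each of the 3 comparisons. None of the 31 members passed the test in any of them by edgeR. Of all genes, 0% were called in the first of them, OA over vehicle. OA-NO2 over vehicle gave 0.0207%, and OA-NO2 over OA gave 0.00691%. DESeq2 called 0, 0 and 1 member, the last being Tm7sf2, higher with OA-NO2 than with OA. A missed threshold does not show that the fatty acids act alike, and the intervals are wide: for Sqle, OA-NO2 over OA, the log2 difference was -0.08 with a 95% interval from -1.21 to 1.05, and for Idi1 it was 0.64, from -0.75 to 2.03. For Mbtps1 the interval was narrower, from -0.27 to 0.31 around 0.02.

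At an unadjusted p under 0.05, OA over vehicle gave 1 member higher, Lbr, and none lower, beside 2.36% and 1.53% of all genes. Lbr stood at 5.45, 5.23 and 5.00 CPM with OA and 3.76, 3.52 and 3.81 CPM with OA-NO2, and every OA library lay above every vehicle and OA-NO2 library. The difference of OA over vehicle was 0.52 on the log2 scale, with a 95% interval from 0.07 to 0.98 (edgeR adjusted p = 0.9746). OA-NO2 over vehicle gave 4 members higher (Tm7sf2, Ebp, Scap and Insig2) and 2 lower (Stard4 and Soat1), beside 7.25% and 8.51% of all genes. OA-NO2 over OA gave 3 higher (Tm7sf2, Scap and Insig2) and 2 lower (Lbr and Soat1), beside 5.27% and 6.76% of all genes. The 3 comparisons share libraries with one another.

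Tm7sf2 had the largest difference of the 31 genes between the fatty acids. Its OA-NO2 libraries, 35.2, 46.7 and 38.6 CPM, all lay above the 6 vehicle and OA libraries, which lay between 17.1 and 29.9 CPM. OA-NO2 over OA was 0.91 on the log2 scale, with a 95% interval from 0.47 to 1.35 (edgeR adjusted p = 0.313). Without OA replicate 3 it was 1.12 (edgeR adjusted p = 0.0338). Soat1 was -0.66 in the same comparison, from -1.10 to -0.23 (edgeR adjusted p = 0.313), and -0.85 without OA replicate 3 (edgeR adjusted p = 0.0475). These are the 2 members called with that library left out. With another library left out, the edgeR adjusted p of each reached 0.859.

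Of the SREBP2 control genes, Scap and Insig2 stood higher with OA-NO2 than with vehicle or OA, and neither was called. Scap held 76.7, 58.6 and 67.7 CPM with OA-NO2 against 45.2, 46.0 and 53.6 CPM with OA and 56.7, 44.1 and 48.6 CPM with vehicle, without overlap, and its OA-NO2 values were near those with chow, 53.2, 59.8 and 78.4 CPM. Its difference of OA-NO2 over OA was 0.49 on the log2 scale, from 0.13 to 0.85 (edgeR adjusted p = 0.348). For Insig2 it was 0.63, from 0.08 to 1.18 (edgeR adjusted p = 0.369). The other control genes, Insig1, Srebf2, Mbtps1 and Mbtps2, had log2 differences of 0.40, 0.21, 0.02 and -0.19 for OA-NO2 over OA. Of 11 tested clock genes none passed the test for OA-NO2 over vehicle or over OA, and 5 and 3 had an unadjusted p under 0.05. Arntl lay between 4.20 and 5.92 CPM with OA-NO2 and between 1.22 and 2.24 CPM with vehicle and OA. Dbp lay between 20.1 and 36.3 CPM with OA-NO2 and between 42.9 and 61.5 CPM with vehicle and OA. Neither gene's groups overlapped, while Nr1d1, at 57.2, 7.93 and 7.85 CPM with OA-NO2, overlapped both groups. Hepatocyte markers also differed: each OA-NO2 library summed to more than any vehicle library, in a sum that mostly follows Alb. Ttr, Apoa2, Asgr1 and Tdo2 lay lower in OA-NO2 replicate 1 than in vehicle replicate 1, and the other markers lay higher. For OA-NO2 over vehicle, 3 of the 10 markers had an unadjusted p under 0.05, none was called, and the median log2 difference was 0.58. The part of the hour of collection or of hepatocyte content in the differences of the OA-NO2 group was not tested.

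**Figure D5:**
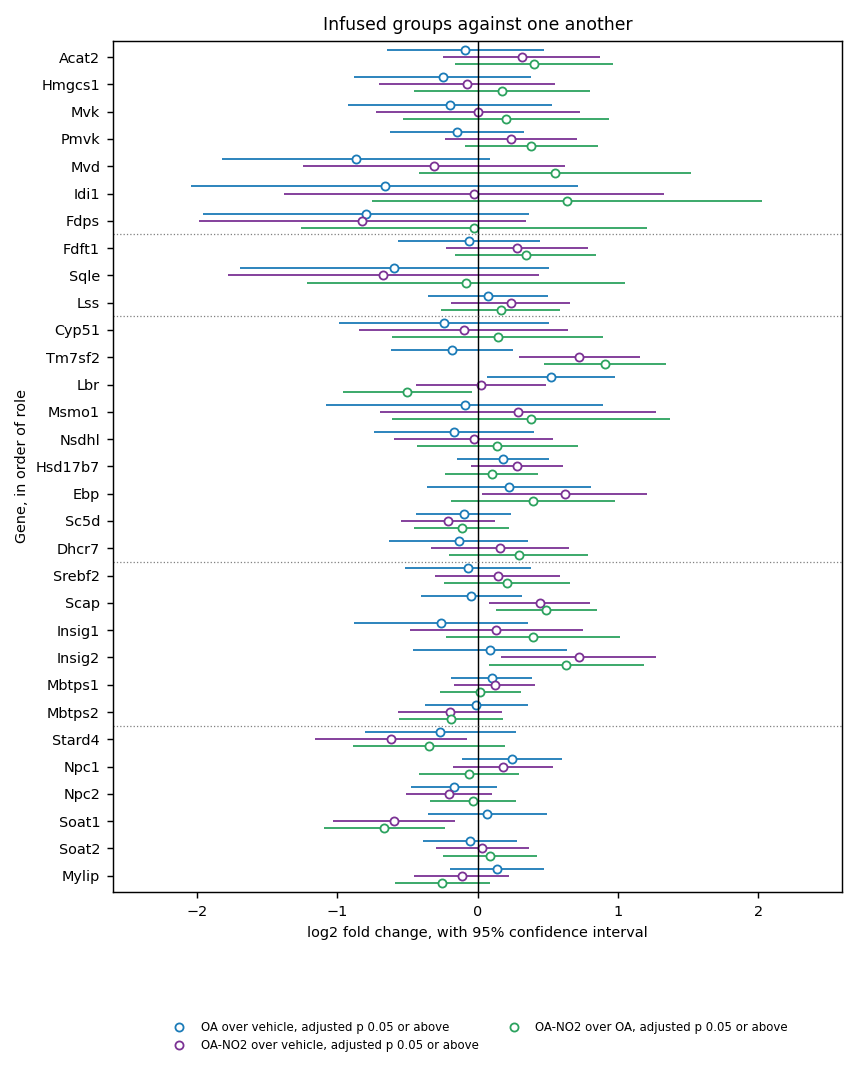
log2 fold change of each of the 31 genes (rows, grouped by role) in the 3 comparisons of the infused groups, with 95% confidence intervals from edgeR. All points are open because no adjusted p was under 0.05, and the Tm7sf2 point for OA-NO2 over OA lies farthest to the right, at 0.91.

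Other genes around the pathway were followed in 4 lists. Their counts with vehicle stand beside 11.1% of all genes called higher and 8.16% called lower, and nothing particular to a list is read from them. Of 19 partners and branches of sterol synthesis, 3 fell with vehicle and none rose, with a median log2 fold change of -0.12. Acss2, which makes acetyl-CoA from acetate, stood at 123, 86.8 and 72.8 CPM with chow and 57.6, 46.6 and 47.3 CPM with vehicle, and fell by 0.89 ± 0.19 on the log2 scale (edgeR adjusted p = 0.00888). Erg28, a scaffold of the sterol demethylation complex, stood at 82.5, 44.2 and 55.8 CPM with chow and 32.4, 34.2 and 29.97 CPM with vehicle, and fell by 0.91 ± 0.21 (edgeR adjusted p = 0.0123). In both genes the vehicle libraries lay below all chow libraries and chow replicate 1 was the highest.

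Of 15 genes of sterol-regulated degradation and SREBP control, 1 rose and 2 fell with vehicle, with a median of -0.12. Rnf145, a ubiquitin ligase of the endoplasmic reticulum that is a target of LXR, stood at 13.3, 18.2 and 14.8 CPM with chow, 41.7, 61.9 and 45.4 CPM with vehicle, 50.4, 47.9 and 43.4 CPM with OA, and 39.1, 27.5 and 27.2 CPM with OA-NO2. No NASH-diet library overlapped chow. It rose by 1.68 ± 0.20 on the log2 scale with vehicle (edgeR adjusted p = 0.00107), and with OA-NO2 by 1.01 (edgeR adjusted p = 0.045). Faf2, which helps extract proteins from that membrane, fell by 0.51 ± 0.12 with vehicle (edgeR adjusted p = 0.0121).

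Of 11 tested genes of oxysterol synthesis and LXR, 2 rose and 1 fell with vehicle, with a median of -0.02. Abcg1, a sterol exporter and LXR target that macrophages also express, stood at 4.52, 7.16 and 6.98 CPM with chow and 13.6, 17.4 and 20.8 CPM with vehicle, and rose by 1.44 ± 0.24 on the log2 scale (edgeR adjusted p = 0.00327). Cyp7b1, the oxysterol hydroxylase of the alternative bile acid route, stood at 242, 227 and 270.3 CPM with chow and 63.7, 46.3 and 54.7 CPM with vehicle, and fell by 2.17 ± 0.38 (edgeR adjusted p = 0.00365). In neither gene did the groups overlap. Of 18 tested genes of other sterol transport and ester hydrolysis, 1 rose and 3 fell with vehicle, with a median of -0.04. Gramd1b, which moves sterols from the plasma membrane inwards, rose by 1.67 ± 0.41 (edgeR adjusted p = 0.0158), and Osbpl1a, an oxysterol-binding protein of late endosomes, fell by 0.53 ± 0.13 (edgeR adjusted p = 0.0135).

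Feeding state and clock phase also shape sterol synthesis, and 2 lists follow them. Of 12 genes of the fed and fasted state, 2 rose and 5 fell with vehicle, with a median of -0.53. Over all genes, 11.1% were called higher and 8.16% lower. Pck1, a gluconeogenic enzyme, fell by 1.44 ± 0.33 on the log2 scale (edgeR adjusted p = 0.0117). Of 11 tested clock genes 1 fell with vehicle, a share near the 8.16% of all genes. It was Clock, by 0.66 ± 0.15 (edgeR adjusted p = 0.0116), while Tef had a log2 fold change of -0.50 ± 0.18 (edgeR adjusted p = 0.0726). The part of feeding state or clock phase in the sterol genes was not tested.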

How the data were processed

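Gene counts of 12 mouse livers, 1 mouse a library, were used as the authors deposited them, as raw whole-number counts per Ensembl gene. Per the submitters' processing notes, the tools were Trimmomatic 0.35, HTSeq, SAMtools 1.2 and HISAT2 2.1.0 and the build GRCm38, and per the labels' protocols reads were paired, 76 bases long, from poly(A) libraries. Whether counting used strand is not given in the sources used here. Symbols, positions and exon lengths came from GENCODE mouse release 21. Genes passed filterByExpr (minimum count 10). edgeR 4.0.16 (R 4.3.3) fitted all 12 libraries with TMM scaling, 1 coefficient a group and a quasi-likelihood test. Adjusted p-values cover 14469 genes, the biological coefficient of variation was 0.226, and the fit was tested on simulated data. Totals ran from 8462590 to 20613777 counts; Fdps, the lowest member, had 8 to 41 counts a library. Alternatives were DESeq2 1.42.0, its size factors, library size alone, no filter, 6 libraries, and each replicate left out. Any member could be named. Of each list of other pathway genes, those named had the 2 lowest p-values for vehicle over chow, and others are named where a result turns on them. A gene that this rule would name is not reported here. The members and lists were chosen with earlier results of these data known.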

Additional observations from a re-analysis of the deposited data

How the results depend on the processing

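With vehicle over chow, leaving out 1 library gave 8 to 14 called members against 14. The count was 8 without chow replicate 1 and 9 without vehicle replicate 2 or 3. With OA over chow it gave 5 to 13 against 13: 5 without OA replicate 1, 6 without OA replicate 2 and 6 without chow replicate 1. With OA-NO2 over chow, each library left out gave 1 against 3, as did a fit of only the 6 libraries compared. Library size alone gave 6 there, no filter 7 and DESeq2 9. Shares of all genes called under the alternatives are not given here. No change in these counts is therefore read as particular to the members. OA-NO2 over OA gave 0 to 2 with 1 library left out, 2 being the count without OA replicate 3, and 1 with DESeq2. Library size alone gave 9 lower and 5 higher with OA over chow, and 4 lower and 2 higher with OA-NO2 over chow, where it moved the median of all genes to 0.42 and 0.34. Against vehicle, neither fatty acid gained a call under any alternative run. Fdps, at 8 to 41 counts a library, had a 95% interval for OA over vehicle that ran from -1.96 to 0.36.

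Every member was followed singly in vehicle over chow. In the other comparisons, only members with an unadjusted p under 0.05 as reported were followed. Changes of sign or call of the remaining members there were not counted. Of the values followed, 694 kept their direction and side of the threshold, 77 lost a call, 28 gained one and 26 changed sign. None of those that changed sign was a called value. With library size alone, vehicle over chow became 0.17 for Acat2, 0.30 for Dhcr7, 0.42 for Fdps, 0.22 for Hmgcs1, 0.34 for Insig2, 0.22 for Lbr, 0.41 for Mbtps2, 0.52 for Mvd, 0.032 for Mvk, 0.0245 for Npc1, 0.22 for Sc5d, 0.15 for Scap and 0.23 for Srebf2. Among the members followed in OA over chow, the value became 0.023 for Sc5d and 0.0099 for Scap. Mvd was 0.0191 with no filter and 0.0183 with only the 6 libraries. With 1 library left out, vehicle over chow ran from -0.425 to 0.016 for Dhcr7, from -0.85 to 0.47 for Fdps, from -0.59 to 0.14 for Hmgcs1, from -0.39 to 0.073 for Insig2 and from -0.37 to 0.73 for Mvd, each highest without chow replicate 1. For Mbtps2 it ran from -0.23 to 0.046, highest without chow replicate 2. The cause was not tested, other than that library size alone leaves out the scaling by TMM factors. No paired analysis was possible because the labels give the groups no shared replicate numbers.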
